A study of Mus musculus with 4 samples.

Results

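The genes described here are 10 genes of MHC class II antigen presentation: H2-Aa, H2-Ab1, H2-Eb1, H2-DMa, H2-DMb1, H2-Oa, H2-Ob, Cd74, Ciita and Ctss. They were found by gene name in the scanner files, which hold 15 probes for them among 39429 probes, and they are 10 of 27746 named genes. Of the 15 probes, 14 were well above background on all 4 arrays, and so all 10 genes were measured on each array. The RNA came from cells labelled as bronchial epithelium, prepared from lungs of mice in an allergic asthma model. The 4 groups were challenged mice labelled Pla2g3-/-, control mice labelled Pla2g3-/-, challenged wild-type mice (Pla2g3+/+) and control wild-type mice. Pla2g3 encodes a secreted phospholipase A2 of group III, which frees fatty acids from phospholipids. Per the labels, the protocol used 10 µg of ovalbumin (OVA) with 1.3 mg of alum by injection on days 0 and 14 and a 30 min aerosol of 1% OVA on each of days 26, 27 and 28. The lungs were removed 3 h later. The treatment of the control mice, which part of Pla2g3 is missing and the age and strain of the mice are not given in the sources used here. RNA pooled from 4 samples went onto 1 single-colour array per group, so no difference between 2 arrays below has a replicate check or a p-value.

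MHC class II molecules are pairs of an alpha and a beta chain that show peptides from proteins taken up by a cell to CD4 T cells. The invariant chain, encoded by Cd74, guides new pairs to the endosome and blocks their groove, cathepsin S (Ctss) trims it there to a short remnant, and H2-DM, the pair of H2-DMa and H2-DMb1, swaps that remnant for peptide. H2-DO, the pair of H2-Oa and H2-Ob, restrains H2-DM and is known mainly from B cells, and Ciita encodes the coactivator that switches the set on. B cells, dendritic cells and macrophages carry class II at their surface, and in the lung alveolar type 2 cells and other epithelial cells also make it.

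Ciita acts through a factor complex bound to paired elements called the X box and the Y box, so promoter stretches are shown for the members in which a class II element was found. RefSeq promoters on GRCm38.p6 were at hand for 7 of the 10 members, and both strands of the 250 bases before each start were searched. The motifs were chosen after these sequences had been seen. TGATTGG, the core of the Y box, was in 5 of the 7 members and in 7.23% of 32851 promoters. An X box pattern, whose matches are the 11 capital letters before the Y box in H2-Eb1, H2-DMb1 and H2-Ob, was in 3 of the 7 and in 0.715% of promoters, and 20 promoters held both patterns. The motifs did not overlap each other in these members. The 5 stretches below are the 160 bases before the start, 5′ to 3′ on the gene's strand, with Y box, X box and cAMP response element letters in capitals. They are H2-Eb1 on chr17:34305707-34305866 (plus strand), H2-DMb1 on chr17:34153031-34153190 (plus), H2-Ob on chr17:34238745-34238904 (plus), H2-Aa on chr17:34287824-34287983 (minus) and H2-Oa on chr17:34092219-34092378 (plus).
H2-Eb1: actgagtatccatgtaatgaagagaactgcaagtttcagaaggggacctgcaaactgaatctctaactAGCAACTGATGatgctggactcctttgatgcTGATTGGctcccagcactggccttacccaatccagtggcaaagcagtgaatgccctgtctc
H2-DMb1: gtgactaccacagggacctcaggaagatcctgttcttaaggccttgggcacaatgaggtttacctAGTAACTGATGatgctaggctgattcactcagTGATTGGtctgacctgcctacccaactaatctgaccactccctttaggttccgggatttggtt
H2-Ob: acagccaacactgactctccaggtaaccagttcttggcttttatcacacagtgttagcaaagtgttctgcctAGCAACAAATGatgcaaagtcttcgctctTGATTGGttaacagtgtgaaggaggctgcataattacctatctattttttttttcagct
H2-Aa: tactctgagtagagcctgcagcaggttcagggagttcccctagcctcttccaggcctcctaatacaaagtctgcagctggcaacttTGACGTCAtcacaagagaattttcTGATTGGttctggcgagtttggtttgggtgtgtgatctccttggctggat
H2-Oa: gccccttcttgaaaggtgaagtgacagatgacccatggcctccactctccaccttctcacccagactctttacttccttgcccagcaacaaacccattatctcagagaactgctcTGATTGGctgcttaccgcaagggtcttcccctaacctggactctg

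The X and Y letters were 20 bases apart in H2-Eb1, 21 in H2-DMb1 and 18 in H2-Ob. H2-Aa did not match the X pattern but held TGACGTCA, the cAMP response element, which was in 1.55% of promoters. A promoter without a match to the X pattern searched for here may still hold an X box. Ctss, which lies outside the class II region, matched neither box pattern but held a 10-letter interferon response pattern, found in 2.98% of promoters. Its 160 bases, on chr3:95526626-95526785 (plus strand), carry that pattern in capitals. The 2 promoters listed for H2-DMa held none of these letters in this window.
Ctss: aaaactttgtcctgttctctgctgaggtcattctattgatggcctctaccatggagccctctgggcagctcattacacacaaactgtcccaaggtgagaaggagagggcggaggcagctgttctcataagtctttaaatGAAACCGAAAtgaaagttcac

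Values below are the scanner's processed signal in intensity units, and differences are on the log2 scale after each array was scaled to its 75th percentile, so 1 is a 2-fold difference. That percentile was 1979 and 1834 units on the challenged and control arrays labelled Pla2g3-/-, and 1808 and 1986 on the challenged and control wild-type arrays. The error that the scanner reports came to 0.20 for a difference in these genes, and the median SD of a difference from repeated spots was 0.09 to 0.10. Neither covers animals, pools or labelling. Pla2g3 went against the labels, with 4154 and 2023 units on the challenged and control arrays labelled Pla2g3-/-, against 254 and 239.5 on the wild-type ones, so all genotype directions rest on the labels as given. Markers of club and ciliated cells were bright on all 4 arrays, such as the club cell gene Scgb1a1 with 406500 to 458300 units, and none of the 12 differed 2-fold in any comparison. The arrays also held genes of other cells. Genes of developing T cells set the control array labelled Pla2g3-/- apart, with a summed signal of 44279 units over 9 genes, against 3764, 1798 and 2465 on the challenged array labelled Pla2g3-/-, the challenged wild-type array and the control wild-type array. The wild-type control array stood apart in B cell genes, as given below.

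The 3 classical chains gave 1 shared order over the arrays. H2-Ab1, the beta chain of the I-A molecule, read 47287 and 34991 units on the challenged and control arrays labelled Pla2g3-/-, and 37965 and 51061 on the challenged and control wild-type arrays. H2-Aa, the alpha chain of the same molecule, read 4665 and 3554 units on the arrays labelled Pla2g3-/-, challenged and control, and 3793 and 5013 on the wild-type ones. H2-Eb1, the beta chain of the I-E molecule, read 33333 and 25164 units on the challenged and control arrays labelled Pla2g3-/-, against 29557 and 37638 on the wild-type arrays. In each the wild-type control array was highest, the challenged array labelled Pla2g3-/- next, then the challenged wild-type array and the control array labelled Pla2g3-/- lowest.

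These spans were small. From highest to lowest array they covered 0.43 for H2-Ab1, 0.38 for H2-Aa and 0.47 for H2-Eb1. Challenge differences in cells labelled Pla2g3-/- were 0.33, 0.28 and 0.30, and in wild type −0.29, −0.27 and −0.21. Each of these 6 values is below 2 scanner errors, so neighbouring arrays in the order are not separated by that error. A second H2-Ab1 probe gave 0.35 in cells labelled Pla2g3-/- and −0.35 in wild type. It shares 51 of its 60 bases with the first, with 1 mismatch, and so is not independent of it.

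The chaperones gave the same picture. Cd74 read 16394 and 12298 units on the challenged and control arrays labelled Pla2g3-/-, against 12689 and 19827 on the wild-type arrays. Its challenge difference was 0.30 in cells labelled Pla2g3-/- and −0.51 in wild type. H2-DMb1 read 3473 and 2883 units on the arrays labelled Pla2g3-/-, challenged and control, and 2902 and 4376 on the wild-type ones. Cd74 and H2-DMb1 kept the order of the classical chains. H2-DMa read 1040 and 812.2 units on the challenged and control arrays labelled Pla2g3-/-, against 669.3 and 1186 on the wild-type arrays, with challenge differences of 0.25 and −0.69. For H2-DMa the challenged wild-type array was the lowest.

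**Figure D1:**
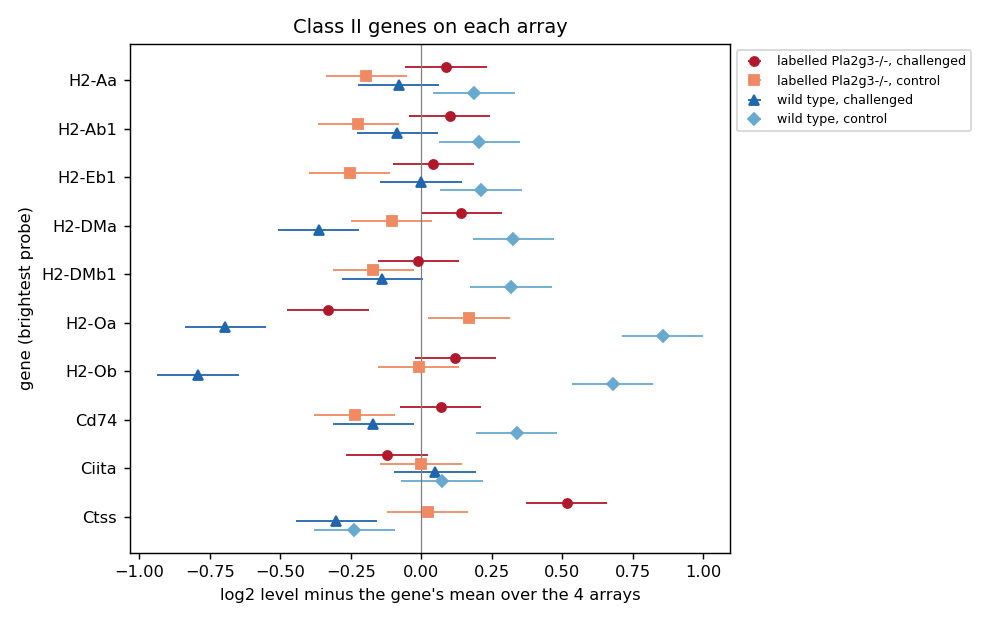
Level of each of the 10 genes on each of the 4 arrays, as log2 minus the gene's mean over the arrays (brightest probe), with bars for the scanner's error of 1 array. The wild-type control array is highest for 9 of 10 genes, as it is for 29.6% of 21576 genes. Among the 9, Ciita's range of 0.20 is within the scanner's error of a difference, while H2-Oa and H2-Ob span the widest range, 1.55 and 1.47.

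The H2-DO chains differed most. H2-Oa, the alpha chain, read 362.5 and 475.2 units on the challenged and control arrays labelled Pla2g3-/-, against 257.3 and 827.8 on the wild-type arrays. It was lower by 1.55 on the challenged wild-type array than on its control, a 2.93-fold difference, and had −0.50 in cells labelled Pla2g3-/-. H2-Ob, the beta chain, read 543.9 and 460.7 units on the arrays labelled Pla2g3-/-, challenged and control, and 264 and 804 on the wild-type ones. Its challenge difference was −1.47 in wild type (2.77-fold) and 0.13 in cells labelled Pla2g3-/-. A second H2-Ob probe put the wild-type difference at −0.99, so H2-Ob passes 2-fold there by only 1 of its 2 detected probes. The remaining H2-Ob probe, designed to the cDNA AK080011, was not well above background on any array. On the wild-type control array both chains were highest, and on the challenged wild-type array both were lowest.

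Ctss stood outside the shared order. Its probe lies on chromosome 3, at bases 95360245 to 95360304 of mm9. It read 17417 and 11471 units on the challenged and control arrays labelled Pla2g3-/-, against 9034 and 10375 on the wild-type arrays. Its genotype difference was 0.82 under challenge, a 1.76-fold difference, and 0.26 without it, and its challenge difference was 0.49 in cells labelled Pla2g3-/- and −0.06 in wild type. Ctss was the only 1 of the 10 genes that was highest on the challenged array labelled Pla2g3-/-, as 21.2% of 21576 genes were.

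Ciita was dim and its 3 probes were unlike. The brightest read 173.7 and 174.9 units on the challenged and control arrays labelled Pla2g3-/-, against 178.7 and 199.5 on the wild-type arrays, a range of 0.20. The probe was designed to the cDNA AK163054, and a second probe to it lies 1180 bases away both in that cDNA and in the genome, so no intron separates them. The second AK163054 probe read 39.27 and 37.67 units on the arrays labelled Pla2g3-/-, challenged and control, and 33.76 and 69.53 on the wild-type ones. The probe to the RefSeq transcript read 64.16 and 62.08 units on the arrays labelled Pla2g3-/-, challenged and control, and 71.99 and 107.5 on the wild-type ones, and 54 of its 60 bases are A or C. Both dimmer probes were highest on the wild-type control array, with wild-type challenge differences of −0.91 and −0.44, against −0.02 for the brightest. After challenge in cells labelled Pla2g3-/- the brightest, second AK163054 and RefSeq probes gave −0.12, −0.05 and −0.06. In the comparisons that use the wild-type arrays Ciita gives no settled value.

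Most of the 10 genes shared a sign in each comparison, and few reached 2-fold. After challenge in cells labelled Pla2g3-/-, 0 of 10 were at least 2-fold higher and 0 lower, beside 3.89% and 3.46% of 23027 genes, with a median of 0.27 against −0.06 over all genes. In wild type 0 were higher and 2 were lower, H2-Oa and H2-Ob, beside 1.79% and 1.70% of 23355 genes, with a median of −0.38 against −0.03. All 10 were below 0 in wild type, where 54.3% of all genes were and 45.7% were above. In cells labelled Pla2g3-/- 8 were above 0, as 42.4% of all genes were, and 2 below, H2-Oa and Ciita, as 57.6% were.

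The genotype comparisons had the opposite signs with and without challenge. Between the challenged arrays 0 of 10 genes were 2-fold higher and 0 lower on the array labelled Pla2g3-/-, beside 3.87% and 2.46% of 23137 genes, and the median was 0.21 against −0.05. There 9 of 10 were above 0, as 40.0% of all genes were, with Ciita (−0.17) the exception. H2-Ob (0.91) and Ctss (0.82) were the widest. Between the control arrays 0 were 2-fold higher and 0 lower, beside 3.25% and 1.80% of 23221 genes, and the median was −0.45 against −0.03. There 9 of 10 were below 0, as 53.9% of all genes were, and 1 above, Ctss (0.26), as 46.1% were. H2-Ob, H2-Oa, Cd74 and H2-DMb1 had −0.69, −0.69, −0.57 and −0.49. All 4 comparisons draw on the same 4 arrays and are not independent.

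**Figure D2:**
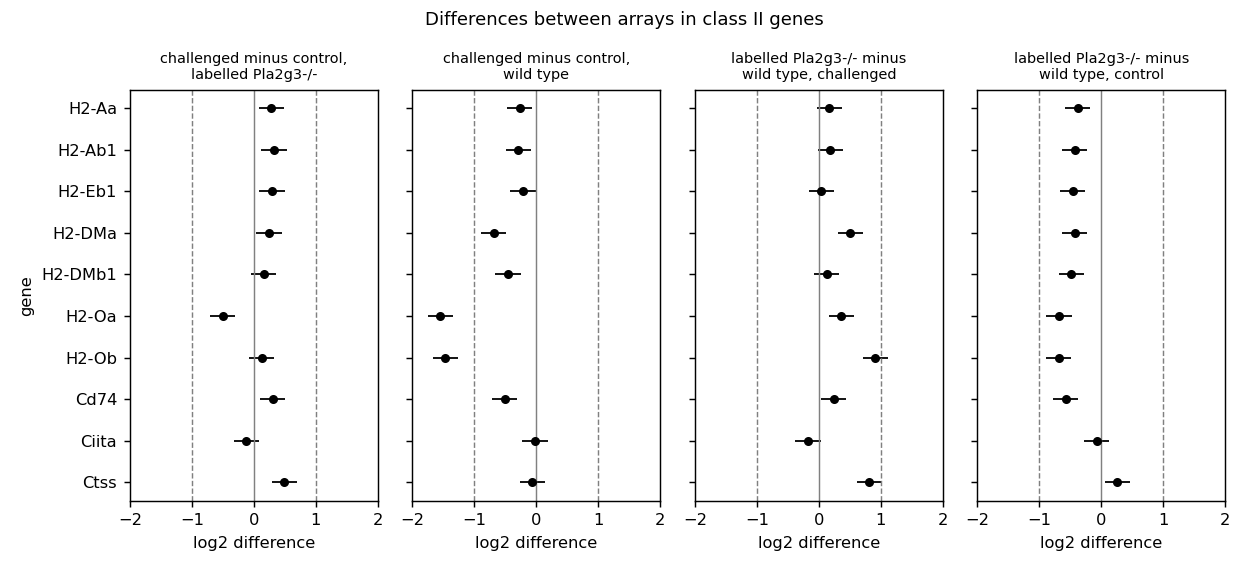
Log2 difference between arrays for the 10 genes in each of the 4 comparisons, with bars for the scanner's error of the difference and dashed lines at 2-fold. Only H2-Oa and H2-Ob pass 2-fold, after challenge in wild type, at −1.55 and −1.47.

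The difference of the 2 challenge effects was above 0 in 9 of 10 genes, as 45.6% of all genes were, and below 0 in Ciita (−0.10), as 54.4% were. The sign for Ciita turned to 0.38 with the mean of its probes and with its RefSeq probe. It passed 2-fold in H2-Ob (1.60) and H2-Oa (1.05), 2 of 10 beside 2.83% of 21576 genes, and in the lower direction in 0, beside 2.71%. At 1.5-fold it was higher in 6 of 10, beside 6.48% of genes, and lower in 0, beside 7.16%. At the same 1.5-fold, challenge in cells labelled Pla2g3-/- gave 0 higher and 0 lower, beside 7.77% and 10.0%. Challenge in wild type gave 0 higher and 3 lower, H2-Oa, H2-Ob and H2-DMa, beside 4.57% and 5.32%. Genotype under challenge gave 2 higher, H2-Ob and Ctss, and 0 lower, beside 7.91% and 7.08%. Genotype without challenge gave 0 higher and 2 lower, H2-Oa and H2-Ob, beside 6.67% and 5.77%. H2-Ob was short of 1.5-fold there with its second probe (−0.37) and with the mean of its probes (−0.53). The signs of the challenge effects depended on which control array was used, with 13 of 20 changing under a swap. The swap recombines the same 4 arrays, so it is no independent check and cannot show which array sets the signs. Some of the changed values lay within the scanner's error of 0.20. Examples are −0.11 for H2-Ab1 in cells labelled Pla2g3-/- and 0.03 for H2-DMb1 in wild type. With each challenged array set against the control array of the other genotype, an alternative added after seeing the data, the median was −0.19 for the array labelled Pla2g3-/- with 1 gene 2-fold lower, beside −0.09 and 3.25% over all genes. For the wild-type array it was 0.04 with 0 genes 2-fold lower, beside 0.01 and 4.11% over all genes.

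Most genes of B cells were also highest on the wild-type control array, and differed less among the other arrays. The 11 B cell markers had a summed signal of 7260, 6335 and 5691 units on the challenged array labelled Pla2g3-/-, the control array labelled Pla2g3-/- and the challenged wild-type array, against 14048 on the wild-type control array. All 11 were detected on every array, and 10 of 11 had their maximum on the wild-type control array, as 29.6% of 21576 genes did. After challenge 7 of 11 were at least 2-fold lower in wild type (median −1.31), and 7 of 11 were 2-fold lower on the control array labelled Pla2g3-/- than on the wild-type control (median −1.12). In cells labelled Pla2g3-/- 0 of 11 passed 2-fold after challenge (median 0.11). Ms4a1, which encodes CD20, read 1125 and 929 units on the challenged and control arrays labelled Pla2g3-/-, against 869 and 2812 on the wild-type arrays. The part of B cells in the class II values was not tested, and in pooled cells a smaller number of cells and less RNA per cell cannot be told apart.

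Markers of other cells that carry class II were measured too. All 12 macrophage markers were highest on the challenged array labelled Pla2g3-/-, as Ctss was and as 21.2% of 21576 genes were. Their median challenge difference was 0.50 in cells labelled Pla2g3-/- and 0.02 in wild type. Their summed signal was 63603 and 42790 units on the challenged and control arrays labelled Pla2g3-/-, against 33079 and 29432 on the wild-type arrays. A large part of it was Chil3, with 26410 and 18650 units on the arrays labelled Pla2g3-/-, challenged and control, and 14750 and 2903 on the wild-type ones. After challenge in wild type Chil3 had 2.48 and Marco −2.01, and Marco had −1.37 between the controls. Of the 9 detected dendritic cell markers, 6 were highest on the challenged array labelled Pla2g3-/- and 3 on the wild-type control array. Of 21576 genes, 21.2% and 29.6% were highest on those arrays. The median challenge differences of the markers were 0.92 in cells labelled Pla2g3-/- and −0.04 in wild type. Siglech, with 75750 to 92900 units, was far brighter than the other markers of that list. The dendritic cell gene Ccr7, 1 of those 3, read 810.9 and 628.2 units on the challenged and control arrays labelled Pla2g3-/-, against 521.4 and 1355 on the wild-type arrays, the order of H2-Ob and H2-DMa. The macrophage marker Cd68 read 4460 and 2967 units on the challenged and control arrays labelled Pla2g3-/-, against 2671 and 2779 on the wild-type arrays. The 10 markers of alveolar type 2 cells had medians of 0.10 and 0.09, with 2 of 10 higher and 1 lower by 2-fold in cells labelled Pla2g3-/- and 0 in wild type. The part of these cells in the Ctss value was not tested. Thymic epithelium also carries class II, and 1 of 7 measured markers was 2-fold higher on the control array labelled Pla2g3-/- than on the wild-type control. This was Foxn1, which was dim, with 45.45 units there against 12.18 on the wild-type control. It read 40.28 units on the challenged wild-type array and was not well above background on the challenged array labelled Pla2g3-/-.

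**Figure D3:**
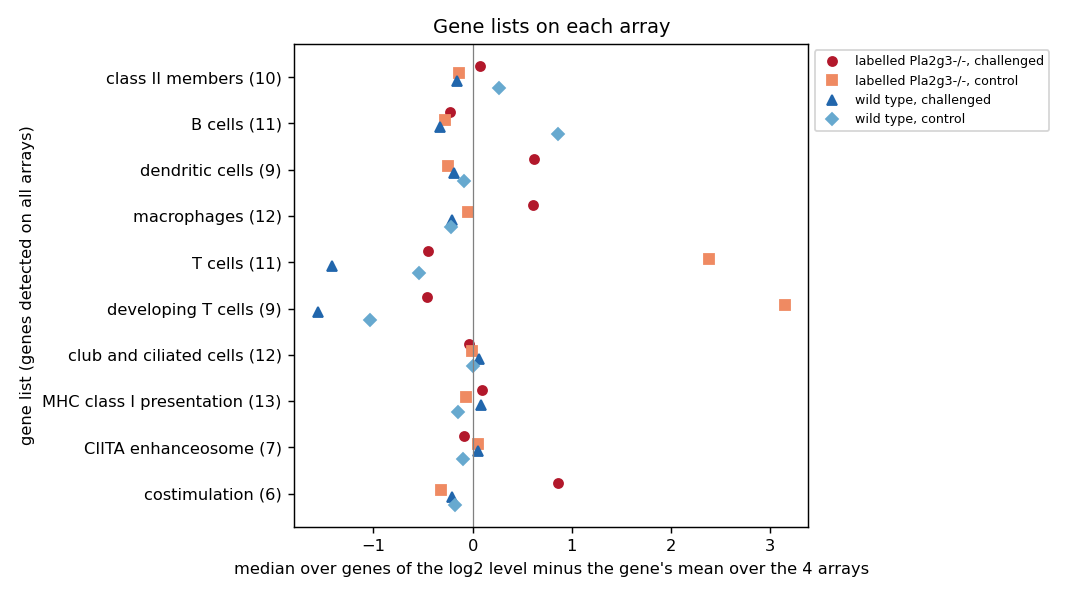
Median over the genes of each list of the log2 level minus the gene's mean over the 4 arrays, with the number of genes detected on all arrays in brackets. The B cell list is highest on the wild-type control array (0.86, against −0.23 to −0.33 on the others), macrophage genes on the challenged array labelled Pla2g3-/- (0.60) and developing T cell genes on the control array labelled Pla2g3-/- (3.15), while class II genes are highest on the wild-type control array (0.26).

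The class II region of chromosome 17 let neighbours be compared. On the array's own mm9 coordinates, 16 genes lay from H2-Oa to H2-Eb1, bases 34232033 to 34453134, of which 6 are members. H2-DMa is unplaced in the scanner files. In wild type all 6 members were below 0 after challenge (−1.55 to −0.21, median −0.37), while the 9 measured neighbours ran from −1.15 to 0.61 with a median of 0.10, 5 above 0 and 4 below. Without challenge all 6 members were lower on the array labelled Pla2g3-/- (median −0.48), against a median of 0.09 for the neighbours. The neighbours ran from −1.10 to 1.60 there, 5 above 0 and 4 below. Tap2, a pump that moves peptides for class I, had 0.48 after challenge in wild type, and Psmb8, a subunit of the immunoproteasome, 0.24, though both sit between H2-DMb1 and H2-Ob. Among the neighbours H2-DMb2, a second beta chain of H2-DM, had −1.15 after challenge in wild type and −1.10 between the controls, where the 6 members ran from −0.69 to −0.38.

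**Figure D4:**
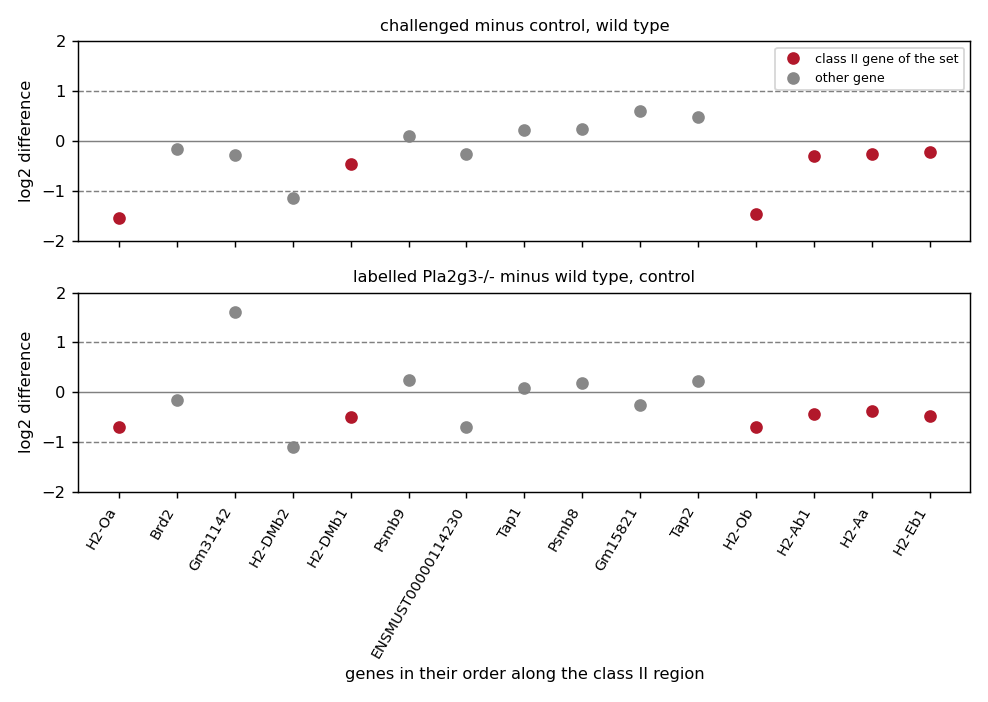
Log2 difference for the detected genes of the class II region in their order along the chromosome, for challenge in wild type (top) and genotype without challenge (bottom), with dashed lines at 2-fold. The 6 members lie below 0 in both panels, and Psmb9, Tap1, Psmb8 and Tap2, between H2-DMb1 and H2-Ob, lie above 0 in both. In the same stretch ENSMUST00000114230 lies below 0 in both (−0.26 and −0.70). Gm15821, also there, lies above 0 in the top panel (0.61) and below 0 in the bottom panel (−0.25).

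Class II genes outside the set were dim. H2-Eb2, a minor E beta chain, read 51.35 and 46.15 units on the challenged and control arrays labelled Pla2g3-/-, against 41.93 and 109.3 on the wild-type arrays. Its wild-type challenge difference was −1.25, and its maximum, like that of H2-DMb2, was on the wild-type control array. The E alpha gene, called H2-Ea-ps in the files, read 30.23 and 14.14 units on the arrays labelled Pla2g3-/-, challenged and control, and 18.52 and 20 on the wild-type ones.

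The factors that Ciita works with had 0 of 7 genes 2-fold apart in any comparison. Their medians after challenge were −0.12 in cells labelled Pla2g3-/- and 0.07 in wild type. Rfx5, which binds the X box, had −0.29 and 0.33, and Nfya, which binds the Y box, −0.12 and 0.29. Endosomal processing genes also had 0 of 10 in every comparison, and among them Ifi30, which reduces disulfides in the endosome, had challenge differences of 0.14 and −0.07. MHC class I genes, which show peptides from inside the cell, had 0 of 13 in every comparison, with medians after challenge of 0.15 and 0.24 in cells labelled Pla2g3-/- and in wild type. Between the control arrays their median was 0.09. Nlrc5, the class I counterpart of Ciita, read 1548 and 803.7 units on the challenged and control arrays labelled Pla2g3-/-, against 1534 and 1313 on the wild-type arrays, so the control array labelled Pla2g3-/- was low.

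Interferon gamma induces Ciita, and several genes of its pathway were higher on the challenged array labelled Pla2g3-/-. Of 10 genes, 4 were at least 2-fold higher after challenge there (median 0.33) and 1 in wild type (median 0.11), which was Socs1. Ifng itself read 95.99 and 18.15 units on the challenged and control arrays labelled Pla2g3-/-, against 19.35 and 29.21 on the wild-type arrays. Gbp2, an interferon-induced GTPase, read 5155 and 1406 units on the arrays labelled Pla2g3-/-, challenged and control, and 2549 and 1936 on the wild-type ones. For both genes the challenged array labelled Pla2g3-/- was the highest.

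Costimulation genes encode signals that antigen-presenting cells give beside peptide. Of the 7 costimulation genes measured, 4 were at least 2-fold higher after challenge in cells labelled Pla2g3-/- (median 1.02), and 0 of 6 in wild type (median −0.04). Cd40, which receives help from T cells, read 531.7 and 64.79 units on the challenged and control arrays labelled Pla2g3-/-, against 124.7 and 137.1 on the wild-type arrays, challenge differences of 2.93 and −0.001. Cd86, a ligand of CD28, read 613.9 and 227 units on the arrays labelled Pla2g3-/-, challenged and control, and 228.9 and 254.1 on the wild-type ones. On the challenged array labelled Pla2g3-/- both were high, and the other 3 arrays lay within a narrower range. For Cd40 the control array labelled Pla2g3-/- was the lowest, with −0.97 against the wild-type control. Neutrophil markers were high on the same array, where 7 of 9 had their maximum, as 21.2% of 21576 genes did. Of these 9, 6 were at least 2-fold higher after challenge in cells labelled Pla2g3-/- (median 2.65) and 4 in wild type (median 0.93). Their summed signal was 512400 and 414679 units on the challenged and control arrays labelled Pla2g3-/-, against 446734 and 468881 on the wild-type arrays, and all 9 were detected on every array. Most of that sum was Ltf and Csf3r, and neither passed 2-fold in any comparison. Ltf read 334900 and 330100 units on the arrays labelled Pla2g3-/-, challenged and control, and 332000 and 352900 on the wild-type ones. In the same order Csf3r read 64750, 68360, 85720 and 106200 units. The sum therefore does not follow the other markers of the list. The part of neutrophils in the interferon and costimulation values was not tested.

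Cd83 and Marchf1, whose products affect how long class II stays at the surface, differed in opposite directions between the challenged arrays. Cd83, which holds class II at the surface, read 2663 and 1275 units on the challenged and control arrays labelled Pla2g3-/-, against 979.6 and 1546 on the wild-type arrays. It was higher by 1.31 on the challenged array labelled Pla2g3-/- than on the challenged wild-type array. Marchf1, a ubiquitin ligase that removes class II, read 2561 and 4112 units on the arrays labelled Pla2g3-/-, challenged and control, and 5497 and 6315 on the wild-type ones, and was lower by 1.23 between the challenged arrays. The list held 5 genes, and the remaining 3, Marchf8, Mif and Cd44, differed by 0.23 or less there.

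The 5 genes with a pattern nearest that of H2-Aa, H2-Ab1, H2-Eb1 and Cd74 over the 4 arrays were Ppl, Fxyd7, Rgsl1, Ifna14 and Slc11a2, among 5586 genes detected on all arrays with a range of at least 0.5. That cut-off lay above the ranges of H2-Aa (0.38), H2-Ab1 (0.43) and H2-Eb1 (0.47) themselves, so other genes with ranges as small were not considered. The root mean square distance of the 5 genes from the shared pattern was 0.04 to 0.05 on the log2 scale. Within the set H2-DMb1 (0.08) was nearer to it than H2-DMa (0.17), and H2-Oa (0.53), H2-Ob (0.44) and Ctss (0.35) were farthest.

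The only test came from limma with genotype and challenge as additive terms, where the disagreement of the 2 challenge effects serves as the error, with 1 residual degree of freedom. It called 0 of the 10 genes for the average challenge effect, beside 0.0232% of 21576 genes, and 0 for the average genotype effect, beside 0.0371%. At an unadjusted p under 0.05 it had 1 of 10 in each, beside 15.8% and 12.4% of all genes. These were H2-Oa for challenge (−1.03 ± 0.28, SE, adjusted p = 0.243 in limma, lower in both genotypes) and Ctss for genotype (0.54 ± 0.16, SE, adjusted p = 0.296 in limma, higher with and without challenge). For H2-Ab1 the average challenge effect was 0.02 ± 0.17 (SE), with an adjusted p of 0.975 in limma.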

How the data were processed

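RNA pooled from 4 samples per group was labelled (200 ng, Cy3) and hybridised to 4 Agilent arrays on 1 slide, 1 group each, so slide position and group cannot be told apart. The deposited scanner files hold intensity values from Agilent Feature Extraction 11.5.1.1 (version per the submitters' processing notes), background-subtracted and detrended, per the file headers, with probes placed on mm9. In the authors' series matrix the deposited intensity is the processed signal divided by a constant near each array's 75th percentile (log2 ratio range 1.59e-06 at most over 44397 features, column medians 0.0850 and 0.0879 for the challenged and control arrays labelled Pla2g3-/- and 0.0860 and 0.0875 for the wild-type ones).

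Levels are log2 processed signal less that array's 75th percentile, computed from 43020 spots with controls left out. Outlier spots (128 to 155 per array) were left out, no spot was saturated, and between 79.2% and 81.9% were well above background. RefSeq symbols (GRCm38.p6) named 28330 probes, 7695 kept the file's name, 3404 had none and 19 with a missing value were left out. Each gene took its brightest probe. Where only 1 side of a difference was detected, it entered counts as a bound against the lowest detected signal. The fit used limma 3.58.1 in R 4.3.3 with a trend and Benjamini-Hochberg adjustment at 0.05, and was tested on simulated data. Precision is limited by having 4 arrays.

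The members, lists and rules were chosen with earlier results of these data known. Named were all 10 members, up to 3 genes per list with the largest differences, the class II region and 5 pattern neighbours. Scgb1a1, Ms4a1, Ccr7, Cd68, Rfx5, Nfya, Tap2, Psmb8, Ifi30, Nlrc5 and Marchf8, Mif and Cd44 were picked for their role after values were seen. Ltf and Csf3r were named for their share of a summed signal, and Siglech for its brightness. Alternatives were normexp background correction (offset 50), quantile normalization, the mean of a gene's probes, only genes detected on all arrays, the authors' table, a 1.5-fold rule, the fit without a trend and, added after seeing the data, other control arrays and other probes of Ciita and H2-Ob.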

Additional observations from a re-analysis of the deposited data

Results flagged for a closer look

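In 8 of the 10 genes the challenge effect was above 0 in cells labelled Pla2g3-/- and below 0 in wild type, a split seen in 16.1% of 22611 genes. With 1 array per group this difference was not tested. Some of these signs rest on values within the scanner's error of 0.20. These were Ctss in wild type (−0.06), and H2-Ob (0.13) and H2-DMb1 (0.16) in cells labelled Pla2g3-/-. The challenge effect in cells labelled Pla2g3-/- minus that in wild type was 1.60 for H2-Ob, 0.94 for H2-DMa, 0.81 for Cd74, 0.62 for H2-Ab1, 0.62 for H2-DMb1, 0.56 for Ctss, 0.55 for H2-Aa and 0.51 for H2-Eb1, with a scanner error of 0.29 each. The control arrays differ in B cell and developing T cell genes, as given above, and the part of those cells was not tested.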

How the results depend on the processing

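No paired analysis was possible because each group has 1 array, and for the same reason no array could be left out of a group. Under normexp, quantile normalization and the authors' table every median of the 10 genes moved by less than the scanner's error, and their values kept their sign, except that Ciita's wild-type challenge effect was 0.02 with quantile normalization and the average challenge effect of H2-Eb1 in the limma fit was −0.0039. With normexp, the difference of the challenge effects was 2-fold higher in 1 gene. At 1.5-fold, 2 genes were higher for genotype under challenge, 2 lower for genotype without challenge and 6 higher for the difference of the challenge effects. With the other detected probe of H2-Ob, 1 gene was 2-fold lower in wild type. The mean of a gene's probes moved 4 of 70 values of the 10 genes, which were H2-Ob after challenge in wild type (−1.23) and Ciita after challenge in wild type (−0.46), between the controls (−0.51) and for the difference of the challenge effects (0.38, a change of sign). With the control array of the other genotype, the challenge median was −0.19 with 1 gene 2-fold lower in cells labelled Pla2g3-/-, beside −0.09 and 3.25% over all genes, and 0.04 with 0 lower in wild type, beside 0.01 and 4.11% over all genes, and 13 of 20 values changed sign. The limma fit called 5 genes for challenge and 0 without a trend, and 8 for genotype, against 0 with normexp, 4 with quantile normalization, 1 with the mean of probes and 0 without a trend. None of these settings called a member. The cause of these shifts was not tested.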
